A study of Arabidopsis thaliana with 12 samples.

Results

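COR15A, COR15B and COR47 are genes that Arabidopsis thaliana is known to switch on in cold and drought, and their transcripts were followed here across wounding and light in rosettes. The members are the probe sets annotated to each of these genes alone, with the brightest to be taken where a gene had several. Each gene had 1, so the members are 3 probe sets of 3 genes, out of 22810 probe sets and 13356 genes with a probe set of their own. They are 263497_at for COR15A (AT2G42540), 263495_at for COR15B (AT2G42530) and 259570_at for COR47 (AT1G20440).

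In the cold, CBF transcription factors bind the CRT/DRE element in the promoters of these genes, and in drought abscisic acid acts on many of the same promoters through the ABRE element. COR15A and COR15B encode close relatives that are imported into the chloroplast and protect its membranes during freezing. COR47 encodes an acidic dehydrin, a hydrophilic protein of the late embryogenesis abundant class that is held to guard proteins and membranes when cells lose water. COR15A and COR15B are next neighbours on chromosome 2 in the TAIR10.1 gene order, and COR47, on chromosome 1, lies next to the dehydrin gene ERD10, which had no probe set of its own in the annotation.

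The study asked how the light environment bears on the wound response. Plants were grown in days of 10 h light and 14 h dark, moved for 30 min to 22 °C in the dark or in light (250 µmol m-2 s-1), and were then left intact or had their leaves crushed with a haemostat, those in the dark under a safelight. Whole rosettes were frozen 60 min later. This gave 4 groups, intact and wounded in the light and intact and wounded in the dark, with 3 arrays each from 3 replicate experiments that each held every treatment. Each array carried 1 RNA extract pooled from 15 to 17 plants. No group was sampled before the light or dark treatment, so higher in the light cannot be told apart from lower in the dark. Plant age at harvest and the Arabidopsis accession are not given in the sources used here, and the treatment text of dark wounded replicate 2 is only an abbreviation, so its title placed it.

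The deposited values are GCRMA values on the log2 scale, on which 1 unit is a doubling. They ran from 1.46 to 15.85 over all arrays, with array medians between 5.40 and 5.60. Of 22810 probe sets, 13567 reached log2 4 on at least 3 arrays and were tested with limma, and all 3 members were among them. A gene was called at a Benjamini-Hochberg adjusted p under 0.05 over the 13567. Of 7 leaf markers, 3 had a probe set of their own in the annotation. All 3 were bright in every sample (RCA, Rubisco activase, 15.1 to 15.3, and LHCB4.2, a light-harvesting protein, 14.2 to 14.8, among them). Of 4 root markers, PRX72 was below log2 4 on every array (2.31 to 2.42) and PYK10, a beta-glucosidase, lay between 6.70 and 9.39 and passed no test without a replicate block. In the comparisons below, 1 leaf marker was called, LHCB4.2 as lower in rosettes wounded in the light than in those intact in the dark. With the replicate number as a block, LHCB4.2 was also called as lower with wounding in the light (-0.39, limma adjusted p = 0.0143), and PYK10 as higher in rosettes wounded in the light than in those intact in the dark (1.02, limma adjusted p = 0.0436). Of 4 seed markers none had a probe set of its own in the annotation. The array's 25S ribosomal RNA control read 8.82 to 10.7 in intact rosettes in the dark and 6.34 to 8.46 on the other 9 arrays, so it set that group apart. All comparisons were fitted with this reading as a covariate as well, and those values are given where a call depends on it. The 3 prime minus 5 prime value of the actin control was 1.04 in dark wounded replicate 1 and 0.54 to 0.74 on the other arrays. The same value ran from 1.48 to 1.82 for the GAPDH control and from -0.37 to 0.07 for the ubiquitin control. None of these was used as a covariate. In whole rosettes, fewer cells of a type and less RNA per cell cannot be told apart.

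The COR15 pair followed light and COR47 followed wounding. COR15A and COR15B were 2.45- to 3.22-fold higher in the light than in the dark, in intact and in wounded rosettes alike, and neither passed the test for wounding. COR47 was 2.01-fold higher after wounding in the light and 1.94-fold higher after wounding in the dark, and passed no test of light against dark. For none of the 3 did the wound effect in the light differ detectably from that in the dark.

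**Figure D1:**
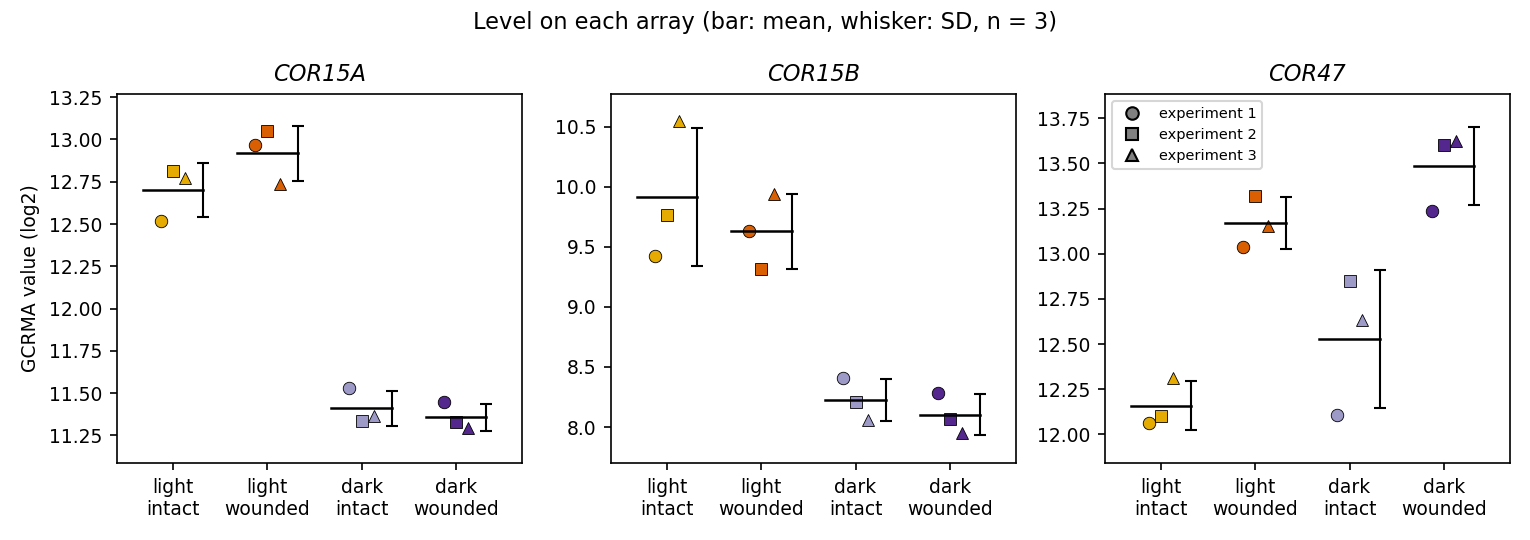
GCRMA values (log2) of COR15A, COR15B and COR47 on each of the 12 arrays, by group. Symbols mark the 3 experiments, bars the group mean and whiskers the SD (n = 3). All light arrays lie above all dark arrays for COR15A and COR15B, and all wounded arrays above all intact arrays for COR47.

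COR15A, the better known of the chloroplast pair, read 12.52, 12.81 and 12.77 in intact rosettes in the light (replicates 1, 2 and 3). It read 12.97, 13.05 and 12.74 in wounded rosettes in the light. In the dark it read 11.53, 11.34 and 11.36 when intact and 11.45, 11.33 and 11.30 when wounded. The 6 arrays from the light were all above the 6 from the dark, while wounded and intact arrays overlapped within either. The share of all tested probe sets separated in this way, by light or by wounding, was not counted. Such a separation is thus a description, here and for the genes below. Intact rosettes were higher in the light by 1.29 ± 0.14 (log2 change ± SE, 2.45-fold, limma adjusted p = 1.10e-04), from 11.41 ± 0.10 to 12.70 ± 0.16 (SD, n = 3). Wounded rosettes were higher by 1.56 ± 0.14 (2.95-fold, limma adjusted p = 1.05e-04), from 11.36 ± 0.08 to 12.92 ± 0.16. The difference appeared in every experiment, at 0.99, 1.48 and 1.41 in intact and 1.52, 1.73 and 1.44 in wounded rosettes. Both calls stood with the 25S covariate, at 1.49 ± 0.22 (limma adjusted p = 0.00559) and 1.58 ± 0.14 (limma adjusted p = 2.35e-04).

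COR15B, its neighbour and paralogue, varied more between experiments in the light. It read 9.43, 9.76 and 10.54 in intact and 9.63, 9.31 and 9.94 in wounded rosettes there. In the dark it read 8.40, 8.21 and 8.06 when intact and 8.29, 8.07 and 7.95 when wounded. Again every light array was above every dark array, and the highest value of the gene was that of light intact replicate 3. The light difference was 1.69 ± 0.26 in intact rosettes (3.22-fold, limma adjusted p = 0.00119) and 1.53 ± 0.26 in wounded ones (2.88-fold, limma adjusted p = 0.00361). By experiment it was 1.02, 1.55 and 2.49 in intact and 1.35, 1.25 and 1.99 in wounded rosettes, so that experiment 3 gave the widest gap in both. Leaving out any 1 array kept both calls. With the 25S covariate the difference in intact rosettes was of like size but no longer passed (1.55 ± 0.43, limma adjusted p = 0.0654), while that in wounded rosettes did (1.52 ± 0.27, limma adjusted p = 0.00684).

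Thus 2 of 3 members were called in each light comparison, both higher in the light. Over all tested probe sets, 23.2% were called for light in intact rosettes and 12.3% were called higher in the light. In wounded rosettes 12.3% were called and 4.86% were called higher. The median change over the 3 members was 1.29 in intact and 1.53 in wounded rosettes, against 0.07 and 0.01 over all tested probe sets. These medians are the values of COR15A and COR15B, and COR47 changed the other way (-0.37 and -0.32). They therefore do not show a shift of the members as a set. In wounded rosettes, 3.13% of tested probe sets had a larger light difference in either direction than COR15A and 3.31% a larger one than COR15B. In intact rosettes these shares were 7.86% and 4.05%.

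Taken gene by gene, wounding left the COR15 pair within the spread of the arrays, and neither gene was called with the replicate block. The difference between their wound effects (0.28) was called by a paired test added after seeing the data, given below (exact permutation adjusted p = 0.0375). For COR15A the wound change was 0.22 ± 0.14 in the light (95% interval -0.09 to 0.52, limma adjusted p = 0.346) and -0.05 ± 0.14 in the dark (-0.36 to 0.25, limma adjusted p = 0.907). In the light it was 0.45, 0.24 and -0.04 by experiment. For COR15B it was -0.28 ± 0.26 in the light (-0.86 to 0.29, limma adjusted p = 0.529) and -0.12 ± 0.26 in the dark (-0.70 to 0.45, limma adjusted p = 0.881). In the light experiment 1 gave 0.21 and experiments 2 and 3 gave -0.45 and -0.60, so the sign was not shared. In the dark the 3 experiments lay close together, between -0.08 and -0.01 for COR15A and between -0.15 and -0.11 for COR15B. The intervals leave room for a fall of COR15B in the light by 0.86 on the log2 scale, or for a rise of COR15A by 0.52.

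COR47, the dehydrin, read 12.06, 12.10 and 12.31 in intact and 13.03, 13.32 and 13.15 in wounded rosettes in the light. In the dark it read 12.11, 12.85 and 12.63 when intact and 13.24, 13.60 and 13.62 when wounded. All 6 wounded arrays were above all 6 intact ones, and dark intact replicate 1 stood with the light intact arrays, below the other two of its group. The rise with wounding was 1.01 ± 0.20 in the light (2.01-fold, limma adjusted p = 0.00474), from 12.16 ± 0.14 to 13.17 ± 0.14 (SD, n = 3). In the dark it was 0.96 ± 0.20 (1.94-fold, limma adjusted p = 0.0110), from 12.53 ± 0.38 to 13.49 ± 0.22. Each experiment showed it, at 0.97, 1.22 and 0.84 in the light and 1.13, 0.75 and 0.99 in the dark. With the 25S covariate the rise in the light was 1.01 ± 0.20 (limma adjusted p = 0.00820). In the dark it was 1.06 ± 0.30 and the call was lost (limma adjusted p = 0.117), although the change was no smaller.

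Of the 3 members, COR47 was thus the 1 called for wounding, in the light and in the dark. Over all tested probe sets 14.9% were called for wounding in the light and 8.48% were called higher. In the dark the shares were 8.12% and 5.84%. Of tested probe sets, 10.6% changed more than COR47 in the light, in either direction, and 7.91% did so in the dark. The median change of the members was 0.22 in the light and -0.05 in the dark, against -0.15 and -0.08 over all tested probe sets. Both medians are the values of COR15A alone.

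Light against dark gave COR47 lower values in the light by amounts that did not pass. The change was -0.37 ± 0.20 in intact rosettes (95% interval -0.80 to 0.06, limma adjusted p = 0.196). It was -0.32 ± 0.20 in wounded ones (-0.75 to 0.11, limma adjusted p = 0.327). All 6 differences by experiment were below 0, at -0.05, -0.75 and -0.32 in intact and -0.20, -0.28 and -0.47 in wounded rosettes. Without dark intact replicate 1 the change in intact rosettes was -0.58 and was called (limma adjusted p = 0.0349). With the replicate number as a block it was -0.37 ± 0.14, just outside the threshold (limma adjusted p = 0.0532).

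**Figure D2:**
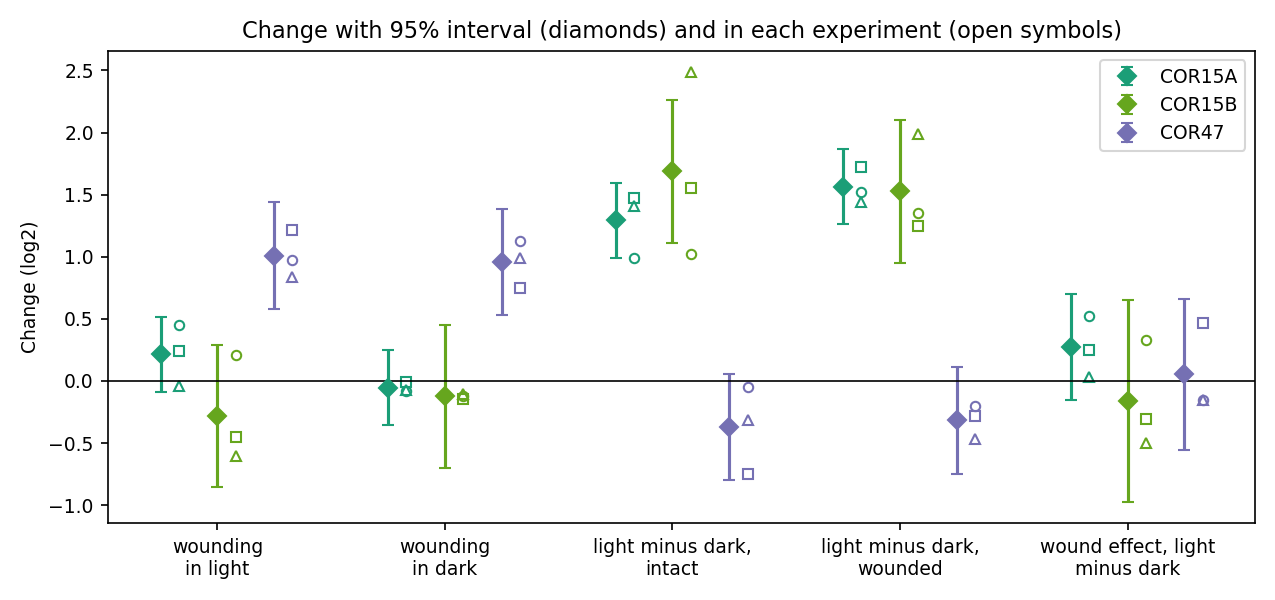
Log2 changes of COR15A, COR15B and COR47 in the 4 comparisons of wounding and of light and in the difference of the wound effects. Diamonds with bars are the estimate and its 95% interval from limma, and open symbols the change in each of 3 experiments. The COR15 genes stand clear of 0 for light and COR47 for wounding, and all 3 intervals of the last comparison span 0.

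Whether wounding acted differently in light and dark was read from the difference of its effects (light minus dark), which was 0.27 ± 0.19 for COR15A, -0.16 ± 0.37 for COR15B and 0.05 ± 0.28 for COR47. None of the 3 interactions was called, with limma adjusted p = 0.999 for each and unadjusted p of 0.192, 0.677 and 0.852. The 95% intervals ran from -0.16 to 0.70, from -0.97 to 0.66 and from -0.55 to 0.66. With 3 arrays a group, interactions within those ranges were thus not excluded. The bounds are not a limit of detection, because calls rested on p adjusted over all tested probe sets. The interaction comparison called 0.0147% of all tested probe sets, 2 in number. The calls of the members were the same with the replicate block, which raised the number of called probe sets from 2015 to 3699 for wounding in the light, from 1102 to 2043 in the dark, from 3147 to 5516 for light in intact rosettes and from 1666 to 3922 in wounded ones.

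The order of the group levels followed from these comparisons and from the crossed pairs of groups. For COR15A the order was wounded in the light (12.92), intact in the light (12.70), intact in the dark (11.41) and wounded in the dark (11.36). Only the step from the light to the dark groups passed, and the same held for COR15B, whose order was intact in the light (9.91), wounded in the light (9.63), intact in the dark (8.22) and wounded in the dark (8.10). For COR47 the order was wounded in the dark (13.49), wounded in the light (13.17), intact in the dark (12.53) and intact in the light (12.16). Its middle step, wounded in the light against intact in the dark, was 0.64 ± 0.20 (limma adjusted p = 0.0322), and its outer steps did not pass. That middle step was lost without dark intact replicate 1 (0.43, limma adjusted p = 0.101) and without light wounded replicates 1, 2 or 3 (limma adjusted p = 0.0539, 0.105 and 0.0715). It was lost as well with no filter on dim probe sets (limma adjusted p = 0.0530).

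In 1 of the crossed pairs the members moved in opposite directions, and in the other they moved together. Rosettes wounded in the dark, against those intact in the light, had COR47 higher by 1.33 ± 0.20 (limma adjusted p = 3.81e-04) and COR15A and COR15B lower, by -1.35 ± 0.14 and -1.81 ± 0.26 (limma adjusted p = 3.69e-05 and 3.39e-04). All 3 members were called there, where 33.5% of tested probe sets were. Rosettes wounded in the light, against those intact in the dark, had all 3 members higher and called, against 26.1% of tested probe sets. In that pair COR15A was higher by 1.51 ± 0.14 and COR15B by 1.40 ± 0.26 (limma adjusted p = 2.98e-05 and 0.00238). The COR15B call in it was lost with the 25S covariate (1.28 ± 0.42, limma adjusted p = 0.0858), as was that of COR47 (0.75 ± 0.32, limma adjusted p = 0.172). These pairs share groups with the comparisons above and are no separate evidence.

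**Figure D3:**
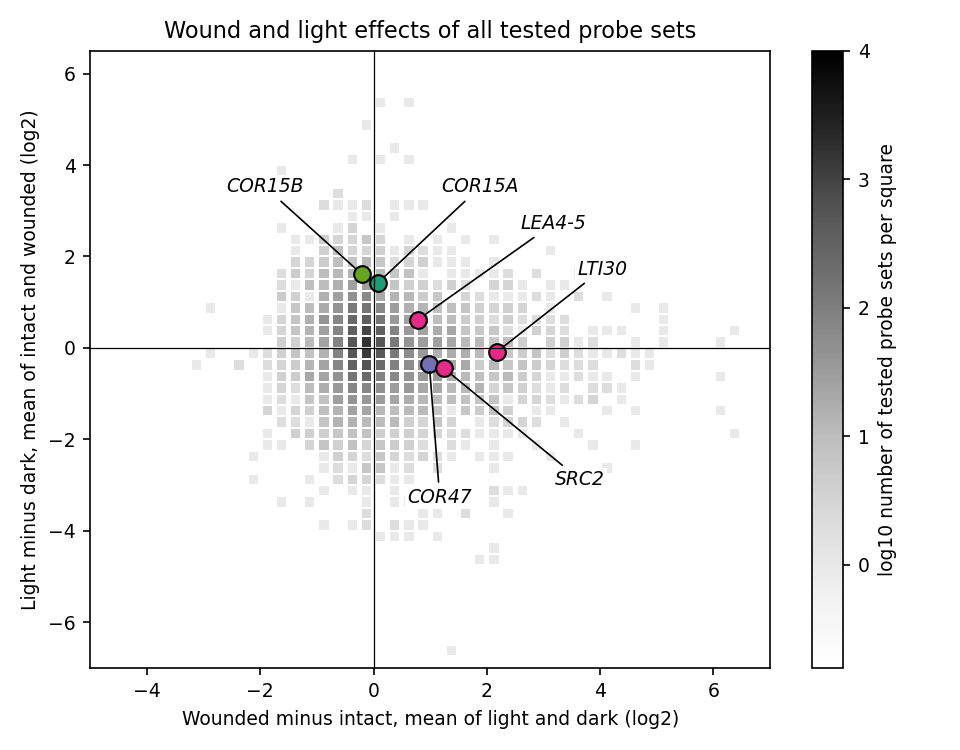
Mean wound effect (horizontal) and mean light effect (vertical), both in log2, of all tested probe sets, shaded by number per square on a log10 scale. Named points are COR15A, COR15B, COR47 and 3 other genes of cold and dehydration. The COR15 pair lies near the light axis (light effects 1.43 and 1.61, wound effects 0.08 and -0.20). COR47, LTI30 and SRC2 lie nearer the wound axis (wound effects 0.98, 2.17 and 1.25, light effects -0.34, -0.09 and -0.45). LEA4-5 lies off both axes (0.78 for wounding and 0.61 for light).

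That COR47 and the COR15 genes moved differently was tested on the difference between 2 genes on each array, by exact permutation of the labels within the levels of the other factor (400 arrangements, two-sided, smallest possible p 0.005, adjusted over 6 tests). The wound effect, averaged over light and dark, was 0.08 for COR15A, -0.20 for COR15B and 0.98 for COR47. Against COR47 it differed by -0.90 in COR15A and by -1.19 in COR15B (exact permutation p = 0.005 for each, adjusted p = 0.0075), with the same sign in 3 of 3 experiments. The light effect, averaged over intact and wounded rosettes, was 1.43, 1.61 and -0.34. It was larger by 1.77 in COR15A and by 1.95 in COR15B than in COR47 (exact permutation p = 0.005 for each, adjusted p = 0.0075), again in 3 of 3 experiments. Within the COR15 pair neither difference passed in this test, which does not use the pairing of arrays by experiment. COR15A minus COR15B was 0.28 for wounding (0.14, 0.41 and 0.30 by experiment, exact permutation p = 0.235, adjusted p = 0.282) and -0.18 for light (0.07, 0.20 and -0.81, exact permutation p = 0.415, adjusted p = 0.415). With labels swapped only within an experiment (64 arrangements, smallest possible p 0.031), a test added after seeing the data, the wound difference within the pair was called (exact permutation p = 0.031, adjusted p = 0.0375) and the light difference was not (p = 0.5, adjusted p = 0.5). The 4 differences from COR47 were called by both tests (adjusted p = 0.0375 in the paired one). The light difference within the pair rests on experiment 3, and without it the difference was 0.14. Unequal response of the probes to the same change in RNA cannot be told apart from unequal change.

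Across the 12 arrays the values of COR15A and COR15B had a Pearson r of 0.92 and a Spearman rho of 0.81, and by r COR15B ranked 34 in likeness to COR15A among tested probe sets of single genes. Over the 6 dark arrays r was 0.90, and over the 6 light arrays it was -0.17. Against COR47, r over 12 arrays was -0.27 for COR15A and -0.41 for COR15B. Within the light it was 0.70 for COR15A and -0.26 for COR15B, and within the dark -0.72 and -0.69, over 6 arrays each. These are descriptions across arrays that share experiments and treatments, and whether the probes of one COR15 gene also read the other's transcript was not tested.

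The genes most like each member over the 12 arrays were taken as the 5 highest Pearson r among tested probe sets of single genes. Genes picked in this way share the member's pattern by choice, so their directions and group orders are descriptions only. For COR15A they were AT3G58830 (r = 0.98), TBL26 (0.97) of a family that acetylates cell wall polymers, AT1G73390 (0.97), the ERF family factor AT2G44940 (0.96) and AT1G21660 (0.96). For COR15B the first was GI, GIGANTEA, a component of the circadian clock (r = 0.98), followed by AT4G12700 (0.96), AT2G46420 (0.96), AT5G50100 (0.95) and AT2G27420 (0.95). None of these 10 overlapped between the lists, and all of them were higher in the light, by 0.29 (AT4G12700) to 5.56 (TBL26) in intact rosettes. GI read 7.95 and 7.84 in the light and 5.57 and 5.55 in the dark (means of intact and wounded), so its light difference of 2.38 in intact rosettes was wider than that of COR15B while its order of groups was the same.

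For COR47 the likest genes were AT1G18210, a calmodulin-like protein (r = 0.98), AT5G22540 (0.98), the cellulose synthase-like gene CSLD2 (0.98), VPS2.1 of the ESCRT-III membrane complex (0.98) and the U-box ubiquitin ligase PUB23 (0.98). All 5 had the COR47 order of groups, highest when wounded in the dark and lowest when intact in the light, which their selection by r makes likely. Their wound changes in the light ran from 1.01 (VPS2.1) to 3.48 (PUB23), and PUB23 rose from 7.13 to 10.61. AT1G18210 changed by 1.27 and 1.17 for wounding, more than COR47 (1.01 and 0.96). For light it changed by -0.32 and -0.22, against -0.37 and -0.32 in COR47. For wounded in the light against intact in the dark it changed by 0.95, against 0.64 in COR47. With the 2 arrays farthest from the median of the member left out, r stayed between 0.91 and 0.98 for all 15 genes. The genes were picked by r on these same arrays, so this is no separate support for the likeness.

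Few other genes of the cold and dehydration pathway could be read. Of 18 listed regulators of the CBF pathway, 2 had a probe set of their own in the annotation and neither was bright enough to test. COR27, a cold-induced gene tied to the circadian clock, passed log2 4 on 2 of 12 arrays, replicate 3 of the dark intact (5.46) and of the dark wounded group (5.56). COR28, its relative, was below log2 4 on every array. Of 29 listed cold-regulated effectors 2 were tested, LTI30 and LEA4-5, and 2 more were found only in a shared probe set. None of 14 early dehydration genes or of 27 genes of abscisate synthesis, breakdown and signalling had a probe set of its own in the annotation. That annotation names no gene for 8730 probe sets, so genes missing from it may still be on the array.

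LTI30, a dehydrin like COR47, also rose with wounding. It read 10.11, 9.22 and 10.44 in intact and 12.25, 11.99 and 11.89 in wounded rosettes in the light. In the dark it read 9.36, 10.09 and 10.43 when intact and 12.11, 12.23 and 12.22 when wounded. No intact array reached the lowest wounded one, and the wounded arrays lay closer together than the intact ones. The rise was 2.12 in the light (limma adjusted p = 9.05e-04) and 2.23 in the dark (limma adjusted p = 0.00175, and 0.0595 with the 25S covariate, at 2.07). Between light and dark it differed by -0.04 in intact and -0.14 in wounded rosettes, neither of which passed (limma adjusted p = 0.940 and 0.811).

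LEA4-5, a late embryogenesis abundant protein of another group, read 5.07, 5.06 and 5.06 in intact and 6.87, 5.08 and 6.35 in wounded rosettes in the light. Replicates 1 and 3 were higher by over 1 unit when wounded there, while replicate 2 was nearly level. Its wound change in the light, 1.03, did not pass (limma adjusted p = 0.132) but did so with the replicate block (limma adjusted p = 0.0287) and without light wounded replicate 2 (1.54, limma adjusted p = 0.0154). Over the arrays left out in turn it ran from 0.65 to 1.54, with adjusted p up to 0.393. Without that same array its light difference in wounded rosettes, 0.87 and not called, was 1.38 and called (limma adjusted p = 0.0336). In the dark LEA4-5 read 5.08, 3.95 and 5.09 when intact and 5.60, 5.01 and 5.09 when wounded. The wound change there was 0.53 and did not pass (limma adjusted p = 0.593). Apart from light wounded replicates 1 and 3, no array read above 5.60. The gene was thus dim, and its calls in the light rest on those arrays.

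**Figure D4:**
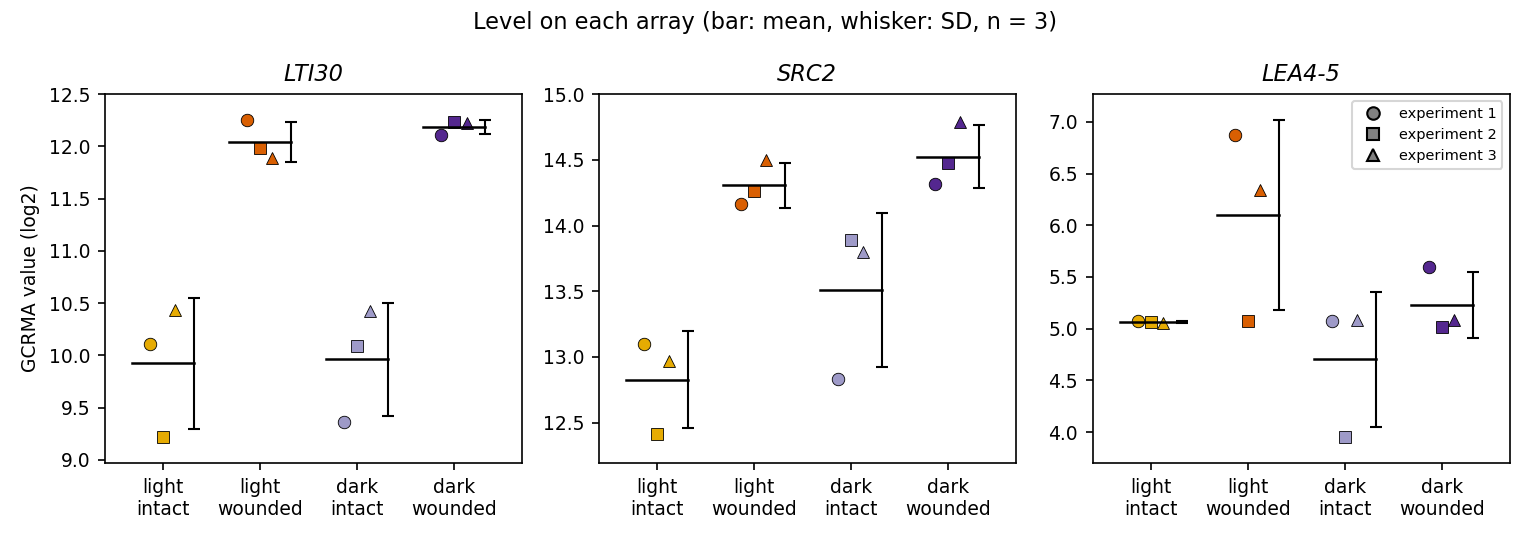
GCRMA values (log2) of LTI30, SRC2 and LEA4-5 on each of the 12 arrays, by group. Symbols mark the 3 experiments, bars the group mean and whiskers the SD (n = 3). LTI30 and SRC2 are higher on every wounded than on every intact array, and LEA4-5 in the light is higher by over 1 unit when wounded in replicates 1 and 3 and nearly level in replicate 2.

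A wider search for other genes whose names hold the words cold, dehydrin, late embryogenesis, low temperature-induced or drought-induced found 12, of which 8 were tested. This search was made after the values had been seen. Of the 8, 2 rose with wounding in the light and 2 in the dark, LTI30 and SRC2 in both cases, and none fell. None was called for light in intact or wounded rosettes or for the interaction. Over all tested probe sets, 8.48% were called higher for wounding in the light and 5.84% in the dark. For light, 23.2% were called in intact and 12.3% in wounded rosettes. Without dark intact replicate 1, SRC2 was called as lower in the light in intact rosettes (-1.02, limma adjusted p = 0.00982, against -0.68 with all arrays). SRC2, the Arabidopsis counterpart of a soybean gene regulated by cold, rose by 1.48 in the light (limma adjusted p = 0.00409). It rose by 1.02 in the dark, a call that was barely made (limma adjusted p = 0.0479). That call did not stand with no filter on dim probe sets, with centring of the arrays, with the 25S covariate (limma adjusted p = 0.426) or without any 1 of 9 arrays, when the limma adjusted p reached 0.159. The median change of the 8 genes was 0.12 for wounding in the light and 0.34 in the dark, against -0.15 and -0.08 over all tested probe sets. The dehydrin HIRD11 (AT1G54410), at 13.76 and 13.67 in the light and 13.64 and 13.72 in the dark (means of intact and wounded), and DI19, a zinc finger protein induced by drought, at 12.62 and 12.43 and at 12.70 and 12.69, passed no test.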

How the data were processed

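Each of 12 arrays gave 1 value per probe set. The deposited values are on the log2 scale and were made by the authors with GCRMA, per the submitters' processing notes, with no version given. GCRMA corrects background by probe sequence and quantile-normalizes the arrays together, so a change is relative to a common distribution of values. Genes were named through the platform annotation and symbols updated through the RefSeq table of TAIR10.1, in which 13436 of 13513 probe sets with 1 gene found a locus. Another 503 name several genes and 8730 none, and none of these was named.

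Probe sets with log2 of at least 4 on at least 3 arrays were fitted in limma 3.58.1 (R 4.3.3) with 1 mean per group over all 12 arrays, giving 8 residual degrees of freedom, and p-values were adjusted over 13567 probe sets (Benjamini-Hochberg, two-sided). 9179 dim probe sets and 64 controls stayed out. Genes were compared with one another by exact permutation. Both procedures were run on simulated data in which the arrays were independent. Those runs cannot show how the procedures behave on arrays that share experiments. The number of arrays limits the precision.

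By the series' design text, every treatment was present in each of the 3 experiments, so replicate numbers pair the arrays. After removal of group means, same-numbered arrays correlated at 0.30 to 0.76 (18 pairs) and others of another group at -0.47 to -0.07 (36 pairs). Deviations from a group mean cancel within the group, so high values for same-numbered arrays force low ones for the others. The contrast between these ranges is thus partly arithmetic. The fit with this block is an alternative. Others were the filter, centring, trend, a 25S covariate and leaving out each array.

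The members and gene lists were chosen with earlier results of these data known. Named are the members, the tested genes of the lists, the 5 genes most like each member and, beyond the rule and after their values were seen, genes found by name words.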

Additional observations from a re-analysis of the deposited data

How the results depend on the processing

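The intervals rest on 3 arrays a group, and each gene had 1 probe set, so the planned comparison of a gene's probe sets gave no value. Over the named genes and alternatives, 600 values kept direction and side of the threshold, 28 lost a call, 8 gained one and 20 changed sign. The replicate block changed no call of the 3 genes and gave 3699 and 2043 calls for wounding in the light and the dark, 5516 and 3922 for light in intact and wounded rosettes, 5671 for wounded in the light against intact in the dark, and 5 for the interaction. With the block and centred arrays (the settings that pair the block with another change were chosen after seeing the data), these were 3461, 2042, 5473, 3943, 5659 and 5. With labels swapped only within experiments, also added after seeing the data, the wound effect of COR15A minus that of COR15B (0.28) became called. The interaction gave 0 calls with the filter at log2 6 and 0 with trended, robust variances. The COR47 change between wounded in the light and intact in the dark (0.64) was lost with no filter. With the 25S covariate the calls were 248 for wounding in the dark, 778 for light in intact rosettes, 1479 for wounded in the light against intact in the dark and 0 for the interaction. The covariate differs mostly between dark intact and the other groups, which widens the errors of every comparison with that group. It lost the calls of COR47 for wounding in the dark (1.06), COR15B for light in intact rosettes (1.55), and COR15B (1.28) and COR47 (0.75) for wounded in the light against intact in the dark. It turned the signs of changes not called, COR15A for wounding in the dark (0.12), the COR47 interaction (-0.052) and LEA4-5 for wounding in the dark (-0.29) and light in intact rosettes (-0.57). With block and covariate together the calls numbered 3174 and 205 for wounding in the light and the dark, 1137 and 3473 for light in intact and wounded rosettes, 2046 and 0 for the last comparisons. Values there were 1.09 (COR47, wounding in the dark), 1.83 and 1.55 (COR15B, light in intact rosettes and wounded in the light against intact in the dark) and 0.79 (COR47, the latter). None of these was called (limma adjusted p = 0.0590, 0.0534, 0.0618 and 0.0664, in that order). LTI30 and SRC2 lost their calls for wounding in the dark as well (2.38 and 1.14, limma adjusted p = 0.0630 and 0.243). LEA4-5 gained a call for wounding in the light (1.06, limma adjusted p = 0.0234). Uncalled values that turned were COR15A (0.10), COR15B (0.0041) and LEA4-5 (-0.082) for wounding in the dark, the COR47 interaction (-0.090), and LEA4-5 (-0.34) and LTI30 (0.13) for light in intact rosettes. Leaving out 1 array at a time, the calls ranged from 1336 to 2053 for wounding in the light, 663 to 1082 in the dark, 938 to 1801 for light in wounded rosettes and 1 to 12 for the interaction. COR47 ranged from -0.58 to -0.21 for light in intact rosettes, 0.43 to 0.80 for wounded in the light against intact in the dark, and -0.11 to 0.26 for the interaction. COR15A ranged from -0.10 to 0.0060 for wounding in the dark, and COR15B from -0.53 to 0.034 for wounding in the light and from -0.40 to 0.16 for the interaction. The light effect of COR15A minus that of COR15B ranged from -0.37 to 0.14, LTI30 in intact rosettes from -0.34 to 0.31 and LEA4-5 there from -0.018 to 0.55. The causes of these moves were not tested.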
